A study of Mus musculus with 6 samples.

Results

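Glutathione S-transferases are the enzymes that join glutathione to reactive, electrophilic molecules so that a cell can export them. The genes described here are 10 members of the cytosolic family, taken by their symbols from the table of liver values. They are 10 of the 17460 gene symbols listed, and all 10 passed the filter on low values. They fall into the alpha class (Gsta2, Gsta3 and Gsta4), the mu class (Gstm1, Gstm2, Gstm3 and Gstm4), the pi class (Gstp1) and the theta class (Gstt1 and Gstt2).

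The values come from whole livers of 6 C57BL/6 mice, 3 labelled control and 3 labelled Blnc1 LKO, the liver-specific knockout of the long noncoding RNA Blnc1. All mice were 9 months old and had eaten NASH diet for 24 weeks, a diet of fructose, trans fats and cholesterol that brings on steatohepatitis. The study's methods describe the knockout as Cas9 transgenic mice given adenovirus with sgRNAs against Blnc1, a vector that reaches hepatocytes far better than other liver cells. For its other diet experiment the study names a GFP adenovirus as the control, and the control vector of these livers is not given in the sources used here. The sex of the mice is not given in the labels. Blnc1 itself was not analysed here, so the deletion was not checked from these values. The comparison asks how liver expression differs when Blnc1 is deleted during NASH.

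In a hepatocyte these enzymes act as dimers in the cytosol, where they handle drugs, quinones, lipid peroxidation products such as 4-hydroxynonenal, and epoxides. Many of their genes are induced through the transcription factor NRF2, which pairs with small MAF proteins on antioxidant response elements, and through the nuclear receptors CAR and PXR. The transferases are among the abundant proteins of liver, and mouse liver is known to hold more of the pi class in males than in females.

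Gstp1, the member with the smallest p, has a near-copy beside it, Gstp2, and what sets the pair apart is shown first. Gstp1 lies on the - strand at chr19:4035407-4037985 (GRCm38, GENCODE M21), and Gstp2 lies beside it at chr19:4040285-4046023 on the same strand. Their coding sequences are 633 bases each and differ at 12 positions, an identity of 98.1%, with the longest identical run at 303 bases. The stretch of 90 coding bases with the most differences is the start of the coding sequence, bases 1 to 90 counted from the A of the start codon, read from the GENCODE transcripts. Capitals mark the 6 positions at which the pair differs.
Gstp1: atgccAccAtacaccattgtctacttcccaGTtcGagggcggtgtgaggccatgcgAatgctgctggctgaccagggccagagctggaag
Gstp2: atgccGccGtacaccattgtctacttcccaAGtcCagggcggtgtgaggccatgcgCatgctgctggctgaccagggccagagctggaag
These 6 of the 12 coding differences are among the bases by which a sequencing read could be assigned to one gene or the other.

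The promoters of the pair are also alike. RefSeq promoters of GRCm38.p6, each 300 bases long and spanning the transcript start, matched 8 of the 10 members by symbol, all but Gsta4 and Gstt2. Both pi-class promoters are printed 5′ to 3′ on the strand of the gene, Gstp1 at chr19:4037863-4038162 and Gstp2 at chr19:4042172-4042471. Capitals mark each match to TGAGNNNGC on either strand, a spelling of the antioxidant response element core.
Gstp1: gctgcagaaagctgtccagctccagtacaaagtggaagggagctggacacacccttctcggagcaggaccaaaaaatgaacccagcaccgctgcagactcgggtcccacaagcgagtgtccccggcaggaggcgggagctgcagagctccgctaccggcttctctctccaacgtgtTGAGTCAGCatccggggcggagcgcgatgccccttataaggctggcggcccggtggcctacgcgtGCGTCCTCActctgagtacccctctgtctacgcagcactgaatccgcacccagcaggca
Gstp2: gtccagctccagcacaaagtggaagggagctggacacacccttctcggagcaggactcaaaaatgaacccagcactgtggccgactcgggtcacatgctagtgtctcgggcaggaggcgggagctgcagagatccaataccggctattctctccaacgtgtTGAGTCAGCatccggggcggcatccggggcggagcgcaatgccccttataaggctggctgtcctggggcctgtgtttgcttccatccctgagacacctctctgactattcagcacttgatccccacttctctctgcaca
Aligned, 242 of 316 positions were identical (76.6%), and the longest shared run was 43 bases. TGAGTCAGC stood in both, its first base at -74 from the start of Gstp1 and at -89 from that of Gstp2.

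These letters are common. TGAGNNNGC, searched on both strands after the Gstp1 and Gstp2 promoters had been read, is held by 17.6% of the 32851 promoters in the table, and among the 8 matched members by Gstp1 and Gstt1. The other spelling, TGACNNNGC, is held by 12.4% of the promoters and among the members by Gsta3, as TGACATTGC at -121 (chr1:21240464-21240472, + strand). GCGTG, the core bound by the aryl hydrocarbon receptor with ARNT, is held by 32.4% and among the members by Gsta2, Gstm1 and Gstp1. In Gstp1 it overlaps the second capital run above. A match is a description of the letters only.

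Sequencing gave 65384969 to 89350181 reads per liver on the listed genes, and 100% of the values came back as whole reads, within 0.01 reads. The values are reads divided by a size factor of each liver, called normalized reads here, and hold no correction for gene length. Hepatocyte markers were present in every liver, with Alb at 3780898 to 4651993 normalized reads, and no marker of the hepatocyte list was at 0. Between groups, limma was fitted to log2(value + 1) over 17297 genes. All fold changes are on that scale, on which low genes seem to change less than they do. With 3 livers a group, an exact permutation test of 1 gene cannot go below p = 0.1, so limma's p-values, adjusted over all genes, are given. The mice are numbered in the labels and each liver was counted as 1 replicate.

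No member passed an adjusted p under 0.05 in limma (0 of 10), where 1 of 17297 genes did (0.00578%). Also none passed with edgeR, which called 0.0116% of all genes, or with DESeq2, which called 0.486%. At an unadjusted p under 0.05, 2 members, Gstp1 and Gstt2, were higher in Blnc1 LKO and 0 were lower, whereas 2.94% of all genes were higher and 2.74% lower at that level. For 1 member, Gstp1, every Blnc1 LKO liver lay above every control liver, and in 0 members every one lay below. Over all genes those shares were 5.35% above and 5.28% below. Counting direction alone, 6 members were higher and 4 lower in Blnc1 LKO livers. Their median log2 fold change was 0.07, beside -0.00099 over all genes tested, and without control replicate 2 it was -0.0126.

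The 10 genes together made up 0.413% ± 0.0230 (SD, n = 3) of the reads in control and 0.425% ± 0.0146 (SD, n = 3) in Blnc1 LKO. The difference was smaller than the spread between replicates. Summed normalized reads were 306580 ± 18477 and 316897 ± 17981 (SD, n = 3 each).

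**Figure D1:**
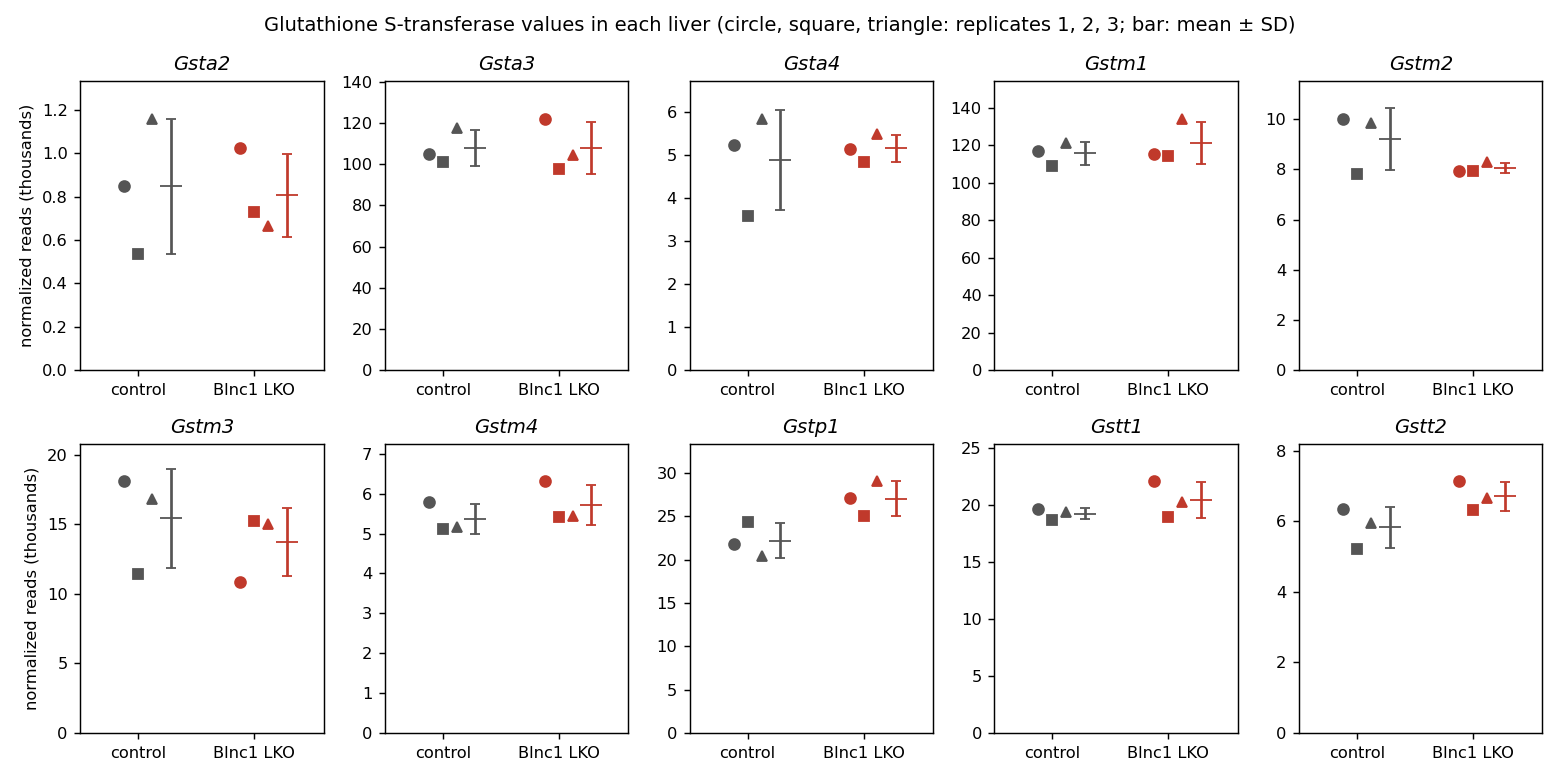
Normalized reads (axis in units of 1000, linear, from 0) of the 10 transferases in each liver, with 3 control livers in grey and 3 Blnc1 LKO livers in red. Symbols stand for replicates 1 to 3 and bars for the mean ± SD. Gstp1 is the panel in which the groups do not overlap, with all Blnc1 LKO livers at 25056 or above and all control livers at 24378 or below.

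Gstp1, the pi-class enzyme, conjugates small electrophiles and also binds and restrains the stress kinase JNK. Its control livers held 21806, 24378 and 20419 normalized reads, and its Blnc1 LKO livers held 27119, 25056 and 29046. Blnc1 LKO replicate 3 was the highest of the 6 livers and control replicate 3 the lowest, while control replicate 2 came just below Blnc1 LKO replicate 2. The log2 fold change was 0.29 (standard error 0.083, 95% interval 0.10 to 0.48), a ratio of 1.22 with an interval of 1.07 to 1.39. The unadjusted p was 0.0079 in limma, rank 189 among all genes, and the adjusted p was 0.714, so the change did not pass. The adjusted p was 0.756 in edgeR and 0.180 in DESeq2. When 1 liver at a time was left out, its log2 fold change lay between 0.23 and 0.36 and the unadjusted p between 0.00355 and 0.0363 (limma).

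Gstp2, the near-copy whose sequence is shown above, held 198, 186 and 225 normalized reads in control livers. Its Blnc1 LKO livers held 251, 318 and 284. Every Blnc1 LKO liver again lay above every control liver, with replicate 2 the highest. This is a log2 fold change of 0.48 (standard error 0.13, 95% interval 0.18 to 0.78), with an unadjusted p of 0.00575 and an adjusted p of 0.674 (limma). Per kilobase of exon, Gstp1 stood at 15916 and Gstp2 at 219 normalized reads over the 6 livers. Of the 50-base windows of Gstp1 transcripts, 33.7% occur in another gene, all of them in Gstp2, and of those of Gstp2 49.1% occur in Gstp1. In those windows the gene a read came from is uncertain, so the value of Gstp2 cannot be taken as independent of that of Gstp1. Whether any reads were assigned to the wrong gene was not tested.

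The theta class is known for substrates such as dihalomethanes and for sulfate ester cleavage. Its 2 members lie in the same region but not next to each other, Gstt1 at chr10:75783813-75798584 and Gstt2 at chr10:75831114-75837424 (GRCm38, both on the - strand). Their coding sequences share 60.8% of aligned bases, and 0% and 0.636% of their 50-base windows occur in other genes.

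Gstt2, the more distant theta enzyme, held 6351, 5208 and 5941 normalized reads in control livers, against 7130, 6311 and 6672 in Blnc1 LKO livers. The groups overlapped by a narrow margin, since control replicate 1 lay just above Blnc1 LKO replicate 2. Its log2 fold change was 0.20 (standard error 0.081, 95% interval 0.02 to 0.39), with an unadjusted p of 0.0346 and an adjusted p of 0.851 (limma). With 1 liver left out at a time the unadjusted p ran from 0.0145 to 0.145, the highest without control replicate 2, the liver in which Gstt2 was lowest.

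Gstt1, the theta enzyme that acts on halogenated methanes, was the steadier gene of the pair in control livers only. There its SD was 2.65% of its mean, against 9.93% for Gstt2. In Blnc1 LKO livers it was 7.60% against 6.12%. Gstt1 held 19667, 18668 and 19342 normalized reads in control livers, against 22045, 18950 and 20271 in Blnc1 LKO livers. Blnc1 LKO replicate 1 stood above the rest, and Blnc1 LKO replicate 2 lay among the controls. Between groups the log2 fold change was 0.08, with a 95% interval of -0.07 to 0.24 (unadjusted p = 0.240, limma).

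**Figure D2:**
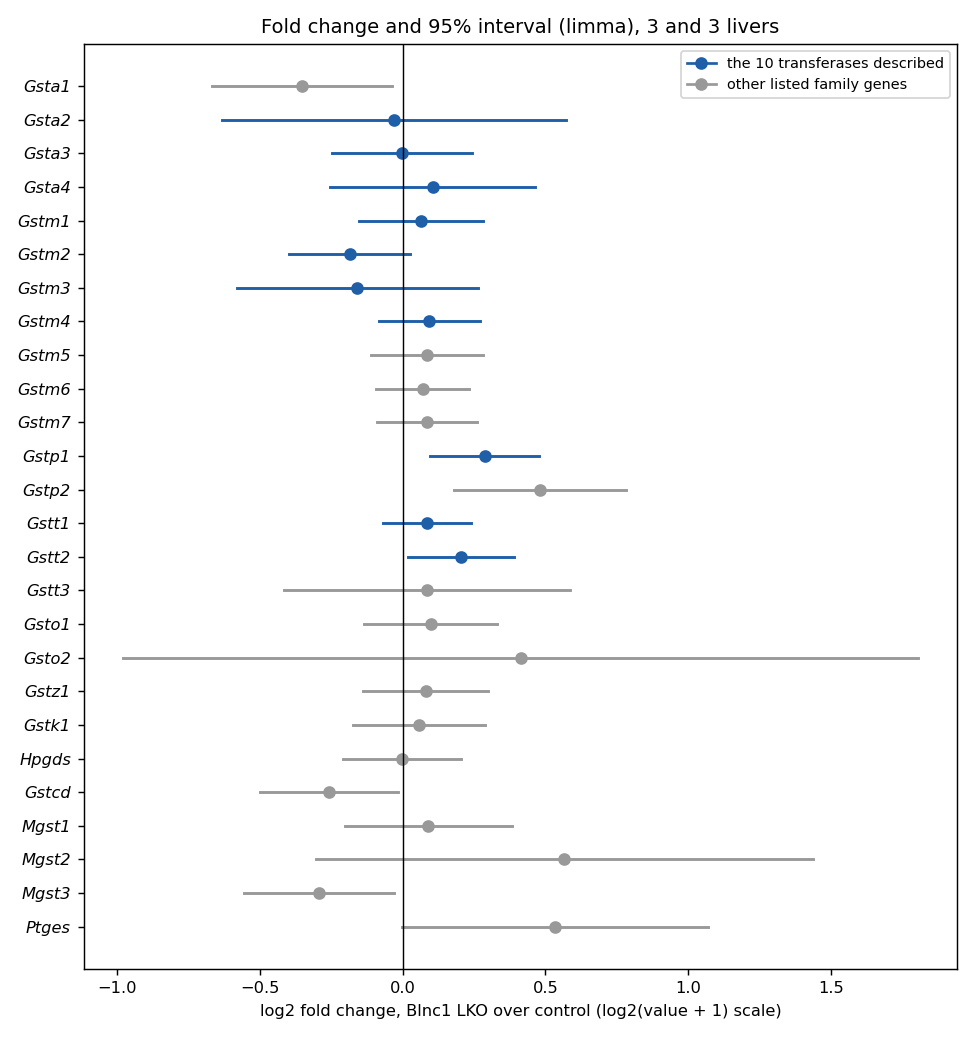
Log2 fold change of Blnc1 LKO over control (horizontal axis, log2(value + 1) scale) for the 26 transferase family genes with a value, as points with 95% intervals from limma over 3 and 3 livers, in blue for the 10 members and grey for the other 16. Intervals of Gstp1, Gstp2 and Gstt2 lie above 0, and those of Gsta1, Gstcd and Mgst3 below it.

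The alpha class acts on lipid hydroperoxides and their aldehydes. Gsta2 and Gsta4 lie on chromosome 9, at 78331018 to 78355788 (- strand) and 78182774 to 78209349 (+ strand), while Gsta3 lies apart at chr1:21240589-21265661 (+ strand, GRCm38). No alpha-class member differed between groups beyond the spread between replicates.

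Gsta3, which detoxifies aflatoxin epoxide in mouse liver, was the most abundant of the alpha class. Control livers held 104950, 100963 and 117629 normalized reads and Blnc1 LKO livers 122011, 97405 and 104515. The highest and the lowest of the 6 livers were both Blnc1 LKO, replicates 1 and 2. A log2 fold change of -0.0017 was fitted with a 95% interval of -0.25 to 0.24 (limma), or a ratio between 0.842 and 1.18.

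Gsta4 is the enzyme with a preference for 4-hydroxynonenal. It held 5233, 3588 and 5840 normalized reads in control livers, against 5138, 4842 and 5478 in Blnc1 LKO livers. Control replicate 2 was far below the other livers, and the 3 Blnc1 LKO livers lay inside the range of the controls. Between groups the log2 fold change was 0.10 (95% interval -0.25 to 0.46, limma), and without control replicate 2 it was -0.10.

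Gsta2, an inducible alpha-class enzyme with peroxidase activity, varied most among livers. It held 851, 537 and 1160 normalized reads in control livers, against 1023, 730 and 666 in Blnc1 LKO livers. Both the lowest and the highest liver were controls. Its log2 fold change was -0.03 with the widest interval of the 10 members, -0.63 to 0.57 (limma), and it ran from -0.33 to 0.23 when 1 liver at a time was left out. Gsta2 also shares much sequence, with 49.8% of its 50-base windows in another gene and 36.0% in Gsta1, its neighbour of 97.5% identical coding sequence.

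The mu class conjugates epoxides and quinones, and its genes stand in 1 row on chromosome 3. Within it, Gstm3 lies at 107963696 to 107969283, Gstm2 at 107981702 to 107986453, Gstm1 at 108012255 to 108017973 and Gstm4 at 108040408 to 108044894, all on the - strand (GRCm38). Coding identity was taken from the longest coding transcript of each gene, with gaps counted as differences. It runs from 72.4% for Gstm1 and Gstm4 to 85.1% for Gstm2 and Gstm3. The Gstm1 transcript used has 735 coding bases against 657 in the others, so gaps lower every identity of Gstm1. By longest identical run, Gstm1 and Gstm3 share 112 bases, and Gstm2 and Gstm3 share 38.

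Gstm1, the leading mu-class enzyme of mouse liver, held 117181, 108995 and 120971 normalized reads in control livers, against 115250, 114421 and 134118 in Blnc1 LKO livers. Blnc1 LKO replicate 3 was highest, and the other Blnc1 LKO livers lay between the controls. A log2 fold change of 0.06 (95% interval -0.15 to 0.28, limma) was fitted, and without Blnc1 LKO replicate 3 it was -0.0097.

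Gstm2, a mu-class enzyme also known for reducing oxidized catecholamines, was the member with the next smallest p after Gstp1 and Gstt2. Its values were 10015, 7801 and 9848 normalized reads in control livers, against 7953, 7937 and 8278 in Blnc1 LKO livers. The 3 Blnc1 LKO livers lay close together, below control replicates 1 and 3 and above control replicate 2. The log2 fold change was -0.19 (95% interval -0.40 to 0.03, unadjusted p = 0.0776, adjusted p = 0.899, limma). Without control replicate 2 it was -0.30 with an unadjusted p of 0.00156 (limma), and it did not pass the adjustment there either (adjusted p = 0.427, limma).

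Gstm3 held 18095, 11412 and 16828 normalized reads in control livers, against 10876, 15246 and 15048 in Blnc1 LKO livers. In each group 1 liver stood well below the others, control replicate 2 and Blnc1 LKO replicate 1. The log2 fold change was -0.16 (95% interval -0.58 to 0.26, limma), and without Blnc1 LKO replicate 1 it was 0.0000. Without control replicate 2 it was -0.36 with an unadjusted p of 0.0362 (limma), also short of the adjusted threshold. Of its 50-base windows 28.8% occur in other genes, beside 18.9% for Gstm1 and 5.65% for Gstm2, so the split of reads among these neighbours is uncertain.

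Gstm4, at the end of the row, held 5786, 5106 and 5170 normalized reads in control livers, against 6307, 5412 and 5435 in Blnc1 LKO livers. Replicate 1 was the highest liver of both groups, and the groups overlapped. The fitted log2 fold change was 0.09 (95% interval -0.08 to 0.27, limma), and none of its 50-base windows occurs in another gene.

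**Figure D3:**
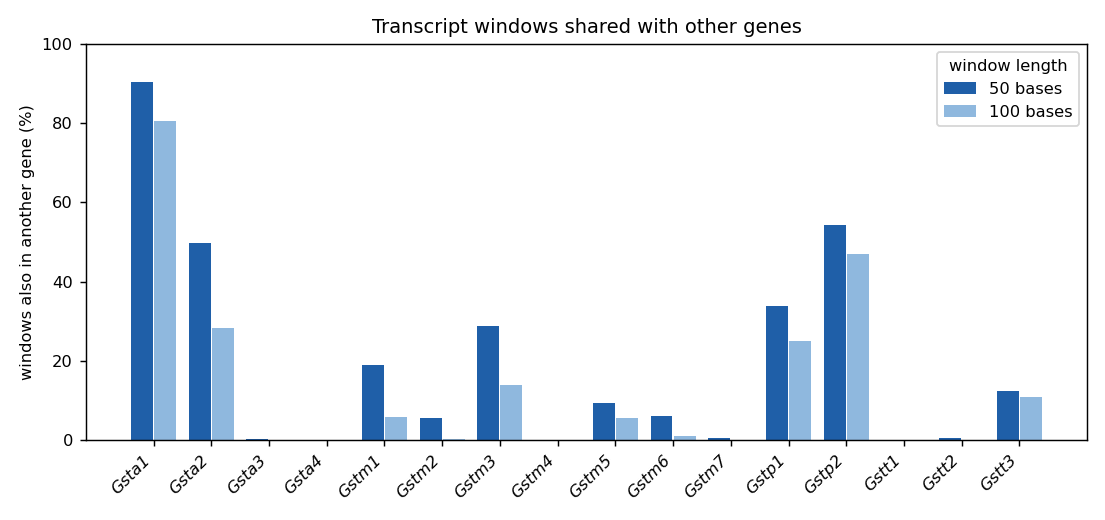
Percent of the windows of 50 bases (dark bars) and 100 bases (light bars) in the GENCODE M21 transcripts of each alpha, mu, pi and theta gene that also occur in a transcript of another gene. At 50 bases the members with most shared sequence are Gsta2 (49.8%), Gstp1 (33.7%) and Gstm3 (28.8%), while Gsta4, Gstm4 and Gstt1 share none.

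Levels of different genes were compared per kilobase of the joined exons of GENCODE M21, as the mean over 6 livers. The joined exons of Gsta3 (4344 bases) and Gstt2 (4156) are much longer than those of the other members (1177 to 1707). Undivided, the control means of Gstm1 and Gsta3 were close, at 115716 and 107847 normalized reads. The order below therefore depends on these lengths, and which transcripts were expressed was not tested. Gstm1 led at 80441 normalized reads per kilobase ± 5835 (SD, n = 6), followed by Gsta3 at 24842 ± 2237. Both stood apart from every other member in all livers. Gstp1 (15916), Gstt1 (12974) and Gstm3 (11125) came next, and in this stretch of the order each gene's range overlapped that of its neighbour. Gstm2 (5145) stood apart from Gstm3 and from Gsta4 (3965), whereas Gsta4 overlapped Gstm4 (3243). Gstt2 (1508) and Gsta2 (703) were lowest, and their ranges did not overlap each other. Sequence shared with other genes was not allowed for in this order. It covers 49.8% of the 50-base windows of Gsta2 and 0.636% of those of Gstt2.

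**Figure D4:**
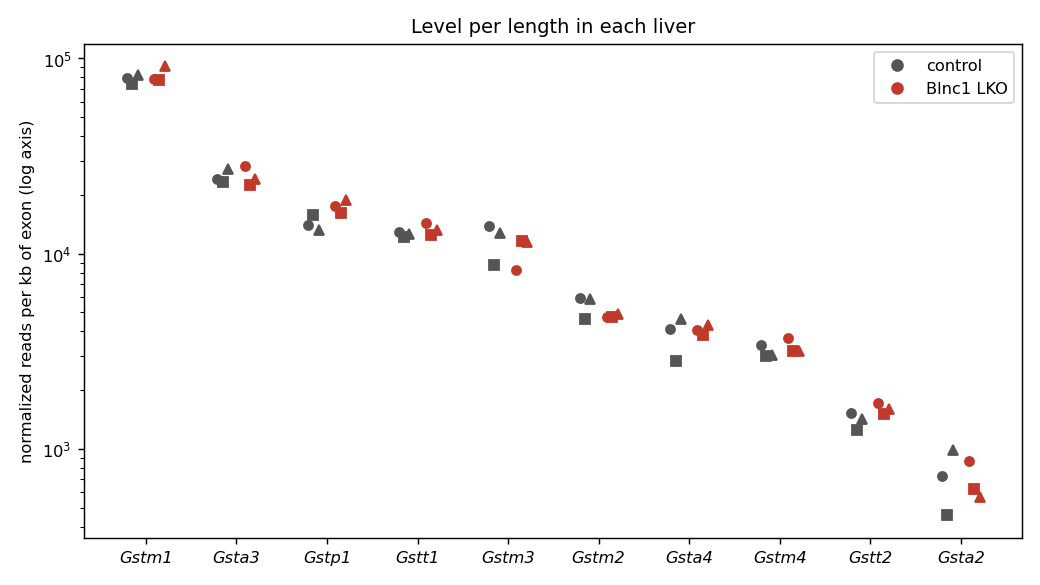
Normalized reads per kilobase of exon (log axis) of each member in the 6 livers, control in grey and Blnc1 LKO in red, with circle, square and triangle for replicates 1, 2 and 3. From Gstm1 at 80441 to Gsta2 at 703 the genes differ far more than the groups do.

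Several members were low or high together in single livers. Control replicate 2 was the lowest of the 6 livers for 7 members, namely Gsta2, Gsta4, Gstm1, Gstm2, Gstm4, Gstt1 and Gstt2, and its median over the 10 members lay 0.13 below the control mean on the log2 scale. In Gstp1 the same liver was the highest control. Blnc1 LKO replicate 1 was the highest liver for Gsta3, Gstm4, Gstt1 and Gstt2 and the lowest for Gstm3, with a median 0.19 above the control mean. The spread of this median between replicates, as a pooled SD, was 0.11, larger than the difference between groups.

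**Figure D5:**
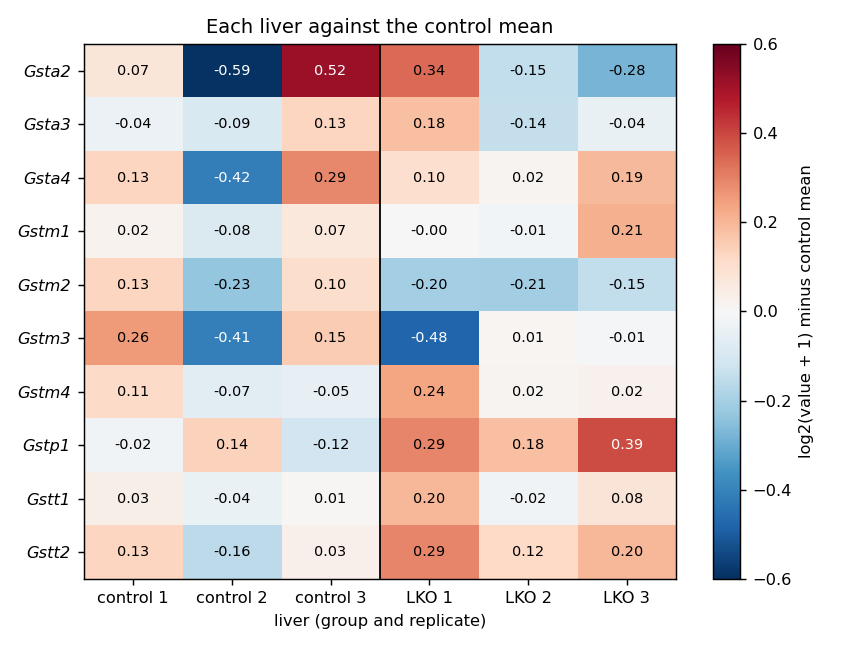
Log2(value + 1) of each member (rows) in each liver (columns) minus the mean of the 3 control livers, with red for higher, blue for lower and the value written in the cell. Gstp1 is the row with all 3 Blnc1 LKO livers above all controls, while the control replicate 2 column is below the control mean in all rows but Gstp1.

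Of 20 other genes of the family that were listed, 16 had values and 0 passed the adjusted threshold in limma, edgeR or DESeq2. At an unadjusted p under 0.05, 1 was higher (Gstp2) and 3 were lower (Gsta1, Mgst3 and Gstcd). Their median log2 fold change was 0.08, with 12 higher and 4 lower in Blnc1 LKO livers. Over all genes tested, 2.94% were higher and 2.74% lower at an unadjusted p under 0.05 (limma). Every Blnc1 LKO liver lay above every control liver in 5.35% of all genes and below in 5.28%. These shares are the background for the counts of each list below.

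Gsta1, the near-copy of Gsta2, held 446, 327 and 448 normalized reads in control livers, against 315, 334 and 297 in Blnc1 LKO livers. Control replicate 2 lay within the Blnc1 LKO range. Its log2 fold change was -0.35 (95% interval -0.67 to -0.04, unadjusted p = 0.0317, adjusted p = 0.848, limma), and 90.5% of its 50-base windows occur in another gene. Mgst3, a membrane-bound microsomal enzyme with peroxidase activity, held 2745, 2108 and 2618 against 1851, 2308 and 1930, a log2 fold change of -0.29 (adjusted p = 0.851, limma). Gstcd, a protein with a transferase C-terminal domain, held 381, 401 and 460 in control livers against 352, 322 and 361, a log2 fold change of -0.26 (adjusted p = 0.858, limma). In Gstcd every Blnc1 LKO liver lay below every control liver, which was not so in Mgst3.

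Mgst1, the main microsomal transferase, was the most abundant of all 26 family genes per length. It stood at 145765 ± 10824 normalized reads per kilobase in control and 155388 ± 16509 (SD, n = 3 each) in Blnc1 LKO, and its log2 fold change was 0.09 (95% interval -0.20 to 0.38, limma). The other mu genes of the row, Gstm5, Gstm6 and Gstm7, had log2 fold changes of 0.09, 0.07 and 0.08, and none reached an unadjusted p under 0.05.

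Transferases depend on the supply of glutathione. Of 17 genes that make, break down, recycle or import it, 0 passed in limma, and at an unadjusted p under 0.05 0 were higher and 2 lower. These were Ggt6, a gamma-glutamyltransferase family gene (log2 fold change -0.19, adjusted p = 0.851, limma), and Gss, glutathione synthetase (-0.14, adjusted p = 0.857, limma). Gss held 10120, 9640 and 9562 normalized reads in control livers, against 8411, 9323 and 8894 in Blnc1 LKO livers, without overlap. Slc7a11, the cystine importer, was low throughout, with 45.7, 55.4 and 50.1 against 38.1, 36.6 and 37.6 (log2 fold change -0.41, adjusted p = 0.891, limma). All 3 genes had every Blnc1 LKO liver below every control liver, and the median of the 17 was -0.03.

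Among 14 other users of glutathione, the peroxidases, glutaredoxins and glyoxalases, 0 passed in limma and 0 reached an unadjusted p under 0.05, with a median log2 fold change of 0.02. The smallest p-values belonged to Gpx4, the phospholipid hydroperoxidase (-0.12), Gpx1, the main cytosolic peroxidase (0.11), and Gpx8, an endoplasmic reticulum member (-0.15). All Blnc1 LKO livers held more Gpx1 than all control livers, with 113118, 108235 and 112929 normalized reads against 120184, 115792 and 125714 (adjusted p = 0.964, limma).

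Conjugates leave the hepatocyte through transporters and are trimmed to mercapturates. Of 18 genes that export conjugates or process them further, 0 passed in limma or edgeR. At an unadjusted p under 0.05 (limma), 3 were higher and 0 lower, and the median log2 fold change was 0.01. The 3 were Ccbl1, the cysteine conjugate beta-lyase now named Kyat1, Abcg2, an export pump, and Cml1, an N-acetyltransferase family gene now named Nat8f1. Ccbl1 held 4095, 4073 and 4435 normalized reads in control livers, against 6442, 4795 and 5773 in Blnc1 LKO livers, without overlap. Its log2 fold change was 0.42 (95% interval 0.19 to 0.65), with an adjusted p of 0.555 in limma, 0.543 in edgeR and 0.0220 in DESeq2. Abcg2 (0.21) and Cml1 (0.21) had adjusted p-values of 0.857 and 0.873 (limma).

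Regulators of the family gave 0 of 14 genes past the threshold in limma and 0 at an unadjusted p under 0.05, with a median log2 fold change of -0.01. Nfe2l2, which encodes NRF2, held 11680, 12029 and 12137 normalized reads in control livers, against 11269, 10763 and 11182 in Blnc1 LKO livers. The groups did not overlap, and the log2 fold change was -0.11 (95% interval -0.22 to 0.0031, unadjusted p = 0.0553, adjusted p = 0.880, limma). Mafk, a small MAF partner, and Rxra, the retinoid X receptor that pairs with CAR and PXR, followed with -0.18 and 0.10.

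NRF2 targets outside the family, 18 genes, gave 0 past the threshold in limma, with a median log2 fold change of -0.03. At an unadjusted p under 0.05 only Hmox1, heme oxygenase 1, was higher and 0 were lower. Hmox1 held 4198, 4162 and 3438 normalized reads in control livers, against 4925, 4612 and 8018 in Blnc1 LKO livers. The groups did not overlap, and Blnc1 LKO replicate 3, the liver in which Gstp1 too was highest, stood far above the rest. Its log2 fold change was 0.53 (95% interval 0.10 to 0.97, adjusted p = 0.831, limma). Srxn1, sulfiredoxin, and Nqo1, the quinone reductase, had -0.14 and -0.17, so that these targets did not share the direction of Hmox1.

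Some marker lists moved with the groups in these livers. Of 10 genes known as male-biased in mouse liver, 10 were higher in Blnc1 LKO, 9 of them with an unadjusted p under 0.05 and 5 without overlap between groups. Over all genes tested, 2.94% were higher at that p (limma), and 5.35% were above without overlap. Summed values of the male-biased genes were 638590 to 900282 in control and 952091 to 1277928 in Blnc1 LKO livers. Of 10 female-biased genes, 0 reached an unadjusted p under 0.05, with sums of 3525 to 7346 and 3846 to 7763, and 2 of them, Sult2a1 and Cyp3a41a, were at 0 in some liver. The part of the male-biased difference in the higher values of Gstp1 and Gstp2 was not tested.

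Pericentral hepatocyte markers showed the same direction. All 10 were higher in Blnc1 LKO, 4 of them with an unadjusted p under 0.05, with sums of 701056 to 746987 in control and 782151 to 1054353 in Blnc1 LKO livers, and none at 0. Periportal markers gave 3 higher and 7 lower, 0 at an unadjusted p under 0.05, with overlapping sums of 272560 to 333822 and 251253 to 314245. Of 8 stellate cell and fibroblast markers, 7 were lower and 4 reached an unadjusted p under 0.05, with sums of 102233 to 114501 in control and 84327 to 102054 in Blnc1 LKO livers. Endothelial marker sums were 33246 to 34810 and 31643 to 33017, also below control. Sums of the hepatocyte, cholangiocyte, macrophage and lymphocyte lists overlapped between groups. So did the red blood cell list, but only 1 of its 5 genes, Alas2, had a value and no hemoglobin gene did. Single markers in 2 of these lists did differ at an unadjusted p under 0.05 (limma). Of 8 macrophage markers, 3 were higher and 1 was lower, with log2 fold changes in that list from -0.54 to 1.10. Of 8 lymphocyte markers, 1 was higher and 0 were lower. None of these lists had a gene that passed in limma, while DESeq2 called 4 stellate, 1 pericentral (Cyp2e1) and 1 male-biased gene (Nudt7). Their part in the values of the transferases was not tested. In whole liver, fewer cells of a type and less RNA per cell cannot be told apart.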

How the data were processed

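RNA sequencing was performed by the authors on polyA-selected liver mRNA of 3 control and 3 Blnc1 LKO mice. Their tools were FastQC, STAR (build mm10), HTSeq and DESeq2, with versions and gene annotation not given in the sources used here. The deposited signal is the read count of each gene after division by the size factor of its liver. Columns named for wild-type and knockout livers were taken as the control and the LKO of the same number.

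From these values, limma (version 3.58.1, R 4.3.3, lmFit and eBayes with trend) was fitted to log2(value + 1) over genes that reached a value of 1 in 3 or more livers, two-sided, with Benjamini-Hochberg adjustment over all genes and a threshold of 0.05. Reads recovered from the values gave alternatives with edgeR (4.0.16), DESeq2 (1.42.0) and voom. Other alternatives were a pseudocount of 0.1, no filter, at least 10 reads in every liver, library size and TMM scaling, the replicate number as a block, and each liver left out in turn. The fits were tested on simulated data.

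The members and gene lists were chosen with earlier results of these data known. All members are named, and from each role list at most the 3 genes of smallest p, plus any past the threshold. Genes of the family outside the members may be named without limit. List genes named by a newer symbol were matched through RefSeq synonyms, which found 4. Family or marker genes without a value were not analysed here. Sequence windows, coding sequences and exon lengths come from GENCODE M21.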

Additional observations from a re-analysis of the deposited data

How the results depend on the processing

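The count of members past the adjusted threshold was 0 under every alternative run. Their median log2 fold change of 0.0748 ran from -0.0126 to 0.1181 with each liver left out in turn, turning its sign without control replicate 2, and it moved by less than the spread between replicates under every alternative. Over all genes, limma called 1 gene, 2 with no filter on low values, 2 with edgeR and 84 with DESeq2. With each liver left out in turn that count ran from 0 to 13, with 0 without control replicate 1, 3 without control replicate 2, 2 without Blnc1 LKO replicate 1 and 13 without Blnc1 LKO replicate 2. Members at an unadjusted p under 0.05 numbered 1 to 3 in those fits, with 3 without control replicate 2 (Gstm2, Gstm3 and Gstp1, in which Gstm2 and Gstm3 were lower) and 1 without control replicate 3, Blnc1 LKO replicate 1 or Blnc1 LKO replicate 3. Among the role lists DESeq2 called 1 gene, Ccbl1. The log2 fold change of Gsta3 turned from -0.0017 to 0.0002 in edgeR and 0.0017 in DESeq2. Leaving out 1 liver also turned the sign of Gsta2 (-0.33 to 0.23), Gsta3 (-0.093 to 0.0694), Gsta4 (-0.10 to 0.25) and Gstm1 (-0.0097 to 0.10). Gstm3 ran from -0.36 to 0.0000, the last without Blnc1 LKO replicate 1, which is no change in either direction. The cause was not tested. No setting moved the median of all genes by 0.1 on the log2 scale. In limma with a replicate block, there were 0 genes and 0 members called, and 2 members had an unadjusted p under 0.05. Deviations of same-numbered livers from their group means had correlations of -0.058, -0.019 and -0.107 across genes. With 3 livers a group these correlations cannot decide whether the numbers pair the mice, and the labels give no pairing. With 3 livers a group, the 95% intervals of the 10 members span changes that remain undecided.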
